A study of Mus musculus with 12 samples.

Results

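The genes described here are 10 members of the tripartite motif (*Trim*) family on mouse chromosome 7, *Trim5*, *Trim12a*, *Trim12c*, *Trim21*, *Trim30a*, *Trim30b*, *Trim30c*, *Trim30d*, *Trim34a* and *Trim34b*, out of 52459 genes listed in the count tables. They were chosen by symbol and by position near *Tpp1* after their T vs N values in both brain areas had been seen, so those values are given as a description and nothing is drawn from them. RNA was sequenced from the cerebellum (Cb) and from the forebrain and midbrain (F/M) of male mice of 4 months of age. N mice were wild-type siblings, and T mice were homozygous for a *Tpp1* gene disrupted by gene targeting, in a line kept by crossing heterozygotes. The 4 groups, F/M-N, F/M-T, Cb-N and Cb-T, held 3 libraries each, from 3 mice of each genotype, and total counts per library ranged from 21428379 to 24458189. The strain of the cells used for targeting was not given in the sources used here.

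TRIM proteins share a RING domain, a B-box and a coiled coil, and many of them act as ubiquitin ligases in innate immunity. *Trim5*, the *Trim12* genes and the *Trim30* genes are the mouse relatives of primate TRIM5, a factor that recognizes the capsid of incoming retroviruses, and they have multiplied by local duplication. Many genes of the family are induced by interferon, and tandem copies often differ in number and sequence between mouse strains.

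The targeted gene was examined first. *Tpp1* (chromosome 7, 105744811 to 105752235, GRCm38) had 112, 114 and 112 CPM (library-size scaled counts, with TMM factors) in the Cb-N libraries and 28.0, 31.0 and 30.0 CPM in the Cb-T libraries. In F/M it had 94.3, 88.7 and 87.7 CPM in N and 23.9, 21.8 and 23.3 CPM in T. Every T library was below every N library of its area. The area labels were checked against marker genes. The summed level of 8 cerebellar markers, of which *Cbln3* had the highest mean over the 12 libraries, was 5976 to 6905 CPM in the Cb libraries and 127 to 140 CPM in the F/M libraries. The summed level of 8 forebrain and midbrain markers, with *Tbr1* highest, was 413 to 456 CPM in F/M and 24.5 to 29.5 CPM in Cb. The 12 replicate pairs were separate libraries, with a chi-square statistic per degree of freedom of 1.28 to 3.59.

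The quasi-likelihood test of edgeR was run on genes that passed a filter on low counts, and a gene was called if its adjusted p was under 0.1 and it differed by 1.5-fold or more. In Cb, 7 of the 10 members passed the filter and 7 were called T vs N, 4 higher and 3 lower, where 11.2% of all tested genes were called, 8.54% higher and 2.66% lower. In F/M, 7 members passed and 7 were called, again 4 higher and 3 lower, where 3.49% of all tested genes were called, 2.63% higher and 0.858% lower. *Trim5*, *Trim30b* and *Trim30c* did not pass in either area. *Trim12a*, *Trim34a* and *Trim34b* in both areas, and *Trim30d* in Cb, would not have passed by the libraries of the genotype in which they were low, so these counts say nothing beyond how the members were chosen. The Cb and F/M comparisons do not share libraries, but the methods name 3 mice per genotype, and which libraries of Cb and F/M come from 1 mouse is not stated.

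**Figure D1:**
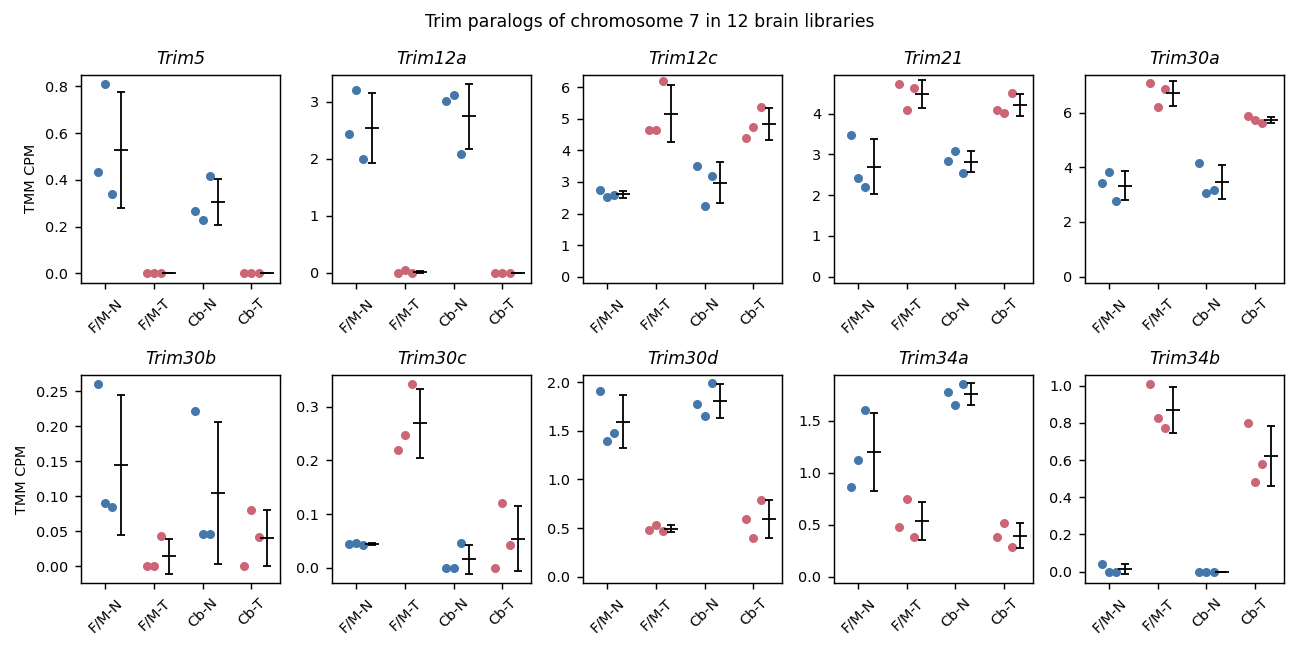
TMM CPM of each Trim paralog (vertical axis, separate scale for each gene) in the 4 groups; points are the 3 libraries of a group, blue for N and red for T, and black bars are the mean and SD. *Trim12a* lies at 1.99 to 3.20 CPM in the N libraries and at 0 to 0.0414 CPM in the T libraries, whereas *Trim34b* is at 0.483 to 1.01 CPM in T and at 0 to 0.0434 CPM in N.

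*Trim12a* (chromosome 7, 104299894 to 104315466, minus strand) is a relative of *Trim5* with a shorter coding sequence. It had 68, 68 and 45 counts in the Cb-N libraries and 0, 0 and 0 counts in the Cb-T libraries. In F/M it had 56, 71 and 47 counts in N and 0, 1 and 0 counts in T. The gene was thus detected in all 6 N libraries and, with a single read, in 1 of the 6 T libraries. Against a floor of 3 counts over the group, *Trim12a* was at least 66.5-fold lower in T in Cb. In F/M the ratio of summed counts, scaled for library size, was 178-fold lower in T, with an exact 95% interval of 31.5 to 7060. The bound in Cb and the ratio in F/M, which rests on 1 read in T, are different measures and cannot be compared in size. Floors and intervals cover counting error only.

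*Trim12c* (104338754 to 104353362, minus strand) is the *Trim12* copy with the longer coding sequence, 1491 bases against 891 for *Trim12a*. It had 3.50, 2.25 and 3.20 CPM in Cb-N and 4.39, 4.75 and 5.39 CPM in Cb-T. In F/M it had 2.73, 2.52 and 2.58 CPM in N and 4.64, 4.63 and 6.21 CPM in T. The T libraries lay above the N libraries in both areas without overlap. The log2 fold change (T vs N) was 0.71 (standard error 0.146) in Cb and 1.01 (standard error 0.148) in F/M. Without the second Cb-N library, whose level was the lowest of its group, the value in Cb was 0.54 and *Trim12c* was not called.

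*Trim5* (104263386 to 104288094, minus strand), named after the primate restriction factor, was rare. Its counts were 6, 5 and 9 in Cb-N and 10, 18 and 8 in F/M-N, and it had 0 counts in each of the 6 T libraries. All N libraries held reads of *Trim5*. Against the same floor it was at least 7.35-fold lower in T in Cb and at least 12.3-fold lower in F/M. *Trim5* passed the filter in F/M, and was called lower, without the first or without the third F/M-T library, and the remaining F/M-T libraries were at 0 counts in each case.

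The *Trim34* copies lie on the plus strand, whereas the other members lie on the minus strand. *Trim34a* (104244457 to 104262234) had 1.77, 1.65 and 1.86 CPM in Cb-N and 0.380, 0.523 and 0.290 CPM in Cb-T. In F/M it had 0.867, 1.13 and 1.61 CPM in N and 0.481, 0.745 and 0.385 CPM in T. All T libraries of *Trim34a* were below the N libraries of their area. The log2 fold change was -2.11 (standard error 0.284) in Cb and -1.12 (standard error 0.317) in F/M.

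*Trim34b* (104329471 to 104336909) went the other way. It had 0, 0 and 0 counts in Cb-N and 19, 12 and 14 counts in Cb-T. In F/M it had 1, 0 and 0 counts in N and 23, 20 and 18 counts in T. Reads of *Trim34b* were therefore present in every T library and in 1 of the 6 N libraries. It was at least 13.6-fold higher in T in Cb, and in F/M the ratio of summed counts was 59.7-fold higher in T, with an exact 95% interval of 10.3 to 2400. As for *Trim12a*, the bound and the ratio, which rests on 1 read in N, cannot be compared in size.

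Of the *Trim30* genes, *Trim30a* (104409025 to 104465193) encodes a regulator of Toll-like receptor signaling. Its mean level per length of exon was the highest of the members in each of the 4 groups. The lead over the next member was smaller than either SD in Cb-N and F/M-N, and smaller than the SD of *Trim12c* in Cb-T. *Trim30a* had 4.17, 3.07 and 3.15 CPM in Cb-N and 5.86, 5.72 and 5.63 CPM in Cb-T. In F/M it had 3.43, 3.83 and 2.75 CPM in N and 7.09, 6.21 and 6.85 CPM in T. The T libraries were above the N libraries in both areas. The log2 fold change was 0.74 (standard error 0.130) in Cb and 1.04 (standard error 0.128) in F/M.

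*Trim30d* (104470014 to 104507849), the neighbor of *Trim30a*, was lower in T. It had 1.77, 1.65 and 1.99 CPM in Cb-N and 0.590, 0.403 and 0.787 CPM in Cb-T. In F/M it had 1.91, 1.40 and 1.48 CPM in N and 0.481, 0.538 and 0.471 CPM in T. The groups did not overlap, and the log2 fold change was -1.59 (standard error 0.263) in Cb and -1.64 (standard error 0.265) in F/M.

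The remaining *Trim30* copies were near the limit of detection. *Trim30b* had 1 to 5 counts in the Cb-N libraries and 0 to 2 counts in the Cb-T libraries, and 2 to 6 counts in F/M-N and 0 to 1 counts in F/M-T. Its summed counts were 2.57-fold lower in T in Cb (exact 95% interval 0.587 to 15.4) and 10.2-fold lower in F/M (interval 1.45 to 443). *Trim30c* had 0 to 1 counts in Cb-N, 0 to 3 counts in Cb-T, 1 count in each F/M-N library and 5 to 8 counts in F/M-T. Its summed counts were 3.63-fold higher in T in Cb (interval 0.359 to 179) and 6.20-fold higher in F/M (interval 1.83 to 32.7). In Cb the N and T libraries overlapped for both genes.

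*Trim21* (102557921 to 102565486, minus strand) encodes a cytosolic receptor for antibody-coated particles and lies apart from the other members, 3.18 Mb from *Tpp1*, whereas the other 9 lie 1.24 to 1.48 Mb from it. It had 2.84, 3.07 and 2.55 CPM in Cb-N and 4.09, 4.03 and 4.51 CPM in Cb-T. In F/M it had 3.47, 2.43 and 2.20 CPM in N and 4.73, 4.10 and 4.62 CPM in T. The groups did not overlap in either area. The log2 fold change was 0.59 (standard error 0.142) in Cb, just inside the limit on the fold change, and 0.76 (standard error 0.158) in F/M. In Cb the call was lost with DESeq2 (0.58), with RLE size factors (0.58), in a fit of all 12 libraries (0.58), without the third Cb-N library (0.51) and without the third Cb-T library (0.54).

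Sums over the *Trim12*, *Trim34* and *Trim30* genes were compared because reads from parts that copies share may be divided between them. The shared part differs between these genes, and the *Trim12* sum leaves out *Trim5*, which also shares sequence with *Trim12c*. The *Trim12* genes together had 6.52, 5.36 and 5.29 CPM in Cb-N and 4.39, 4.75 and 5.39 CPM in Cb-T, and 5.16, 5.72 and 4.57 CPM in F/M-N and 4.64, 4.68 and 6.21 CPM in F/M-T. The N and T libraries overlapped in both areas. The log2 ratio of the means (T over N) was -0.24 (standard error 0.133) in Cb and 0.01 (standard error 0.171) in F/M.

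The summed *Trim34* level was 1.77, 1.65 and 1.86 CPM in Cb-N and 1.18, 1.01 and 0.870 CPM in Cb-T, without overlap. In F/M it was 0.911, 1.13 and 1.61 CPM in N and 1.49, 1.57 and 1.16 CPM in T, with overlap. The log2 ratio was -0.79 (standard error 0.136) in Cb and 0.21 (standard error 0.278) in F/M. Among the *Trim30* genes the log2 ratio of the sum was 0.25 (standard error 0.111) in Cb and 0.55 (standard error 0.120) in F/M. For all 10 members it was 0.04 (standard error 0.079) in Cb and 0.34 (standard error 0.096) in F/M, with 15.1 to 17.6 CPM in Cb-N, 16.1 to 17.3 CPM in Cb-T, 13.1 to 15.6 CPM in F/M-N and 17.3 to 19.7 CPM in F/M-T. Without *Trim21* the value in Cb was -0.10.

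**Figure D2:**
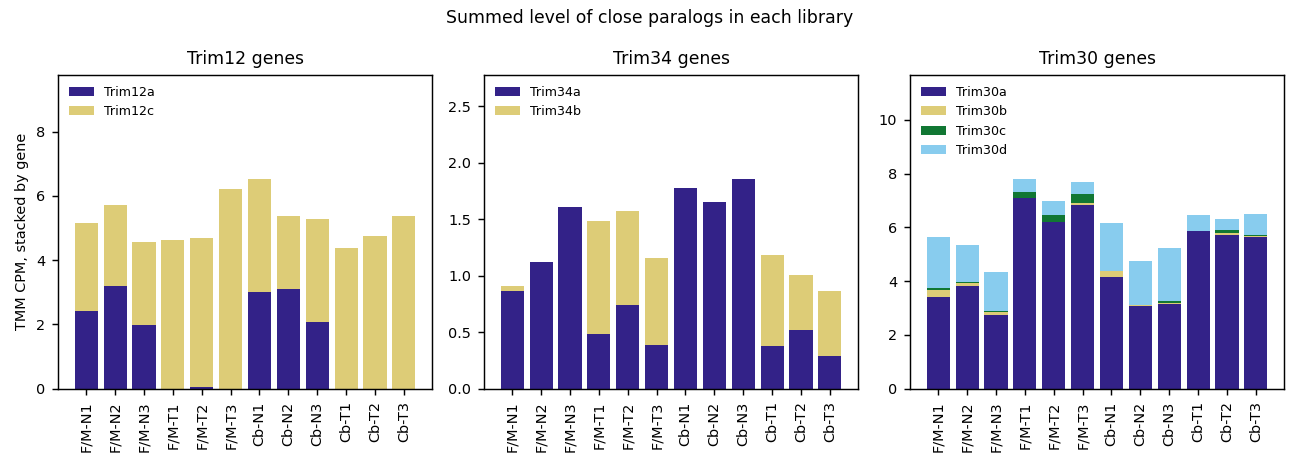
TMM CPM of the Trim12, Trim34 and Trim30 genes in each of the 12 libraries, stacked by gene, so that the height of a bar is the summed level. The Trim12 bars of N and T overlap in both areas although *Trim12a* is at 0 to 0.0414 CPM in T, and the Trim34 bars of T consist of both copies, whereas those of N consist of *Trim34a* except for 0.0434 CPM in 1 F/M-N library.

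Levels of different members were compared per kb of annotated exon. In Cb-N the mean level was 0.843 ± 0.149 CPM per kb (SD, n = 3) for *Trim30a*, 0.798 ± 0.175 for *Trim12c* and 0.759 ± 0.0702 for *Trim21*. *Trim34a* followed with 0.679 ± 0.0398 CPM per kb, then *Trim30d* with 0.481 ± 0.0463, *Trim12a* with 0.474 ± 0.0982 and *Trim5* with 0.0825 ± 0.0270. *Trim30a* and *Trim12c*, *Trim12c* and *Trim21*, and *Trim30d* and *Trim12a* differed by less than either SD. In Cb-T the order began with *Trim30a* at 1.40 ± 0.0280, *Trim12c* at 1.29 ± 0.135 and *Trim21* at 1.13 ± 0.0716 CPM per kb, followed by *Trim34b* at 0.336 ± 0.0881, *Trim30d* at 0.158 ± 0.0512 and *Trim34a* at 0.153 ± 0.0454. There *Trim30d* and *Trim34a* differed by less than either SD.

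The area contrasts were not used to choose the members and were tested. In N mice, 6 members passed the filter and edgeR called 0 of them Cb vs F/M, where 42% of all tested genes were called. DESeq2 and limma-voom also called 0, and 1 member, *Trim34a*, had an unadjusted p below 0.05, with a log2 value (Cb vs F/M) of 0.54 (standard error 0.231, edgeR adjusted p = 0.039) and a ratio of 1.46, under the limit of 1.5. Its Cb-N libraries, at 1.65 to 1.86 CPM, were above the F/M-N libraries, at 0.867 to 1.61 CPM. Without the third F/M-N library, *Trim34a* was called, at 0.81.

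In T mice, 6 members passed and edgeR called 0 Cb vs F/M, where 35.4% of all tested genes were called; DESeq2 and limma-voom called 0. *Trim30a* was the only member tested with an unadjusted p below 0.05, at a log2 value of -0.25 (standard error 0.105, edgeR adjusted p = 0.034), a change under the limit of 1.5. Each of its Cb-T libraries was below each F/M-T library. Without the first Cb-T library, *Trim34b* was called at -0.72, and with no filter on low counts *Trim30c* was called at -2.21.

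The difference of the T vs N change between the areas was fitted as the area-by-genotype interaction over all 12 libraries. It is formed from the values by which the members were chosen, so it is given as a description and nothing is drawn from it. Of 7 members that passed the filter, edgeR, DESeq2 and limma-voom each called 0 (DESeq2 gave *Trim34b* no adjusted p), where edgeR called 7.61% of all tested genes. *Trim12a* and *Trim34b* each have groups at 0 or 1 counts, so their fits tell nothing of a difference between areas. *Trim34a* was the 1 member with an unadjusted p below 0.05, with an interaction of -0.98 on the log2 scale (standard error 0.450). It was called without the third F/M-N library (-1.25), without the third F/M-T library (-1.17) or without the second Cb-T library (-1.23).

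How far reads of 50 bases, the length sequenced, can tell the members apart was read from the annotated transcripts of GENCODE M21. Counted gene by gene, so that a window found in several members counts for each, the 10 members had 38738 windows of 50 bases, and 13.7% of them also occurred in a transcript of another member. The share was 56.8% for *Trim34b*, 39.8% for *Trim34a*, 29.5% for *Trim5*, 28.7% for *Trim12c*, 7.78% for *Trim12a*, 7.49% for *Trim30d* and 5.98% for *Trim30a*. For *Trim30c* it was 0.66%, for *Trim30b* 0.406%, and *Trim21* shared 0 windows with another member. *Trim34a* and *Trim34b* had 1049 windows in common, *Trim5* and *Trim12c* 889, *Trim5* and *Trim12a* 298, *Trim30a* and *Trim30d* 243, and *Trim12a* and *Trim12c* 234. How reads with more than 1 alignment were counted is not stated, so the values of members with a large shared part, the *Trim34* genes, *Trim5* and *Trim12c*, are uncertain.

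Coding sequences of *Trim34a* and *Trim34b* were identical at 98.8% of 1455 aligned bases. Those of *Trim12a* and *Trim12c* were identical at 96.4% of 891 aligned bases, those of *Trim5* and *Trim12c* at 96.6% of 1491, and those of *Trim30a* and *Trim30d* at 90.2% of 1488. Of the aligned coding windows of 50 bases that lie within 1 exon, 789 of 1160 were identical between the *Trim34* genes and 74 of 649 between the *Trim12* genes. The windows below, in the direction of transcription, are those with the most differences in each pair, and capitals mark the bases that differ. They are extremes: the median number of differences per window was 2 between the *Trim12* genes and 0 between the *Trim34* genes. The *Trim12* windows are in exon 2 of each gene (chr7:104307171-104307220 and chr7:104348187-104348236, minus strand, GRCm38), and the *Trim34* windows are in exon 2 of *Trim34a* and exon 1 of *Trim34b* (chr7:104247807-104247856 and chr7:104329624-104329673, plus strand).
Trim12a: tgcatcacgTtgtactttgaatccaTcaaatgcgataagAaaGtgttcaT
Trim12c: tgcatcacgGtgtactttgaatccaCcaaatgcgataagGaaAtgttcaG
Trim34a: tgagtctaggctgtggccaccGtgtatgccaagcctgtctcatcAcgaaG
Trim34b: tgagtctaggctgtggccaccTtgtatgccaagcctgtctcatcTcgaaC

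An antisense gene, *Gm15133*, overlaps the 5′ end of *Trim12a* and had 0 counts in all 12 libraries. Genes outside the group also share sequence with it. *Gm47248*, whose symbol is not listed in the count tables, shares 532 windows of 50 bases (20.2%) with *Trim34a*, so that 59.7% of the windows of *Trim34a* occur in a transcript of another gene, member or not. That share is 36.6% for *Trim5* and 33.7% for *Trim12c*. *Gm4992*, which shares 227 windows of 50 bases with *Trim5* and 107 with *Trim12c*, had 0 counts in all 12 libraries. The libraries were made with a stranded kit, but the strand setting of the counting is not given in the sources used here.

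The other genes around *Tpp1* were counted by distance, without the members and *Tpp1*. Within 1 Mb, 3 of 17 tested genes were called T vs N in Cb (*Cckbr*, *Gm45632* and *Gm8995*) and 1 of 19 in F/M (*Dchs1*). At 1 to 2 Mb, the distance of 9 members, 1 of 7 genes was called in Cb and 1 of 5 in F/M, *Olfml1* in both, and at 2 to 5 Mb 7 of 55 and 2 of 54. Over the whole window of 5 Mb the share called was 13.9% of 79 genes in Cb and 5.13% of 78 genes in F/M, beside 11.1% and 3.36% on the other chromosomes. Those named from 1 area were chosen after their values were seen. *Dchs1*, a protocadherin gene next to *Tpp1*, had -0.58 (standard error 0.069) in Cb, just outside the limit, and -0.64 (standard error 0.068) in F/M on the log2 scale. The gene of the cholecystokinin B receptor, *Cckbr*, had 1.78 (standard error 0.197) in Cb and -0.41 (standard error 0.046) in F/M, and its interaction is not given here. Genes within 5 Mb had a median log2 fold change of -0.04 in Cb and -0.03 in F/M, against 0.01 over all tested genes in each area. By distance, the median was -0.135 in Cb and -0.0755 in F/M within 1 Mb. At 1 to 2 Mb it was 0.417 in Cb (7 genes) and 0.286 in F/M (5 genes), and at 2 to 5 Mb -0.0141 and -0.00516. The few genes at 1 to 2 Mb included the beta-globin genes *Hbb-bs* (0.46 in Cb, 0.18 in F/M) and *Hbb-bt* (0.50 and 0.29). The alpha-globin genes of chromosome 11 were also above 0 in both areas, and the part of globins in these medians was not tested.

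The neighbors called in both areas were *P2ry6*, *Olfml1* and *Stk33*, each higher in T. *Olfml1*, an olfactomedin-like gene 1.82 Mb from *Tpp1*, had 8.78, 9.35 and 9.32 CPM in Cb-N and 20.1, 20.8 and 21.1 CPM in Cb-T, and 12.2, 10.6 and 10.8 CPM in F/M-N and 23.1, 21.2 and 21.7 CPM in F/M-T. Its groups did not overlap, and the log2 fold change was 1.19 (standard error 0.074) in Cb and 1.01 (standard error 0.072) in F/M. *P2ry6*, a receptor for extracellular nucleotides that microglia use in phagocytosis, had log2 fold changes of 1.37 (standard error 0.256) and 0.64 (standard error 0.166). The kinase gene *Stk33* had 0.97 (standard error 0.281) and 0.81 (standard error 0.211).

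**Figure D3:**
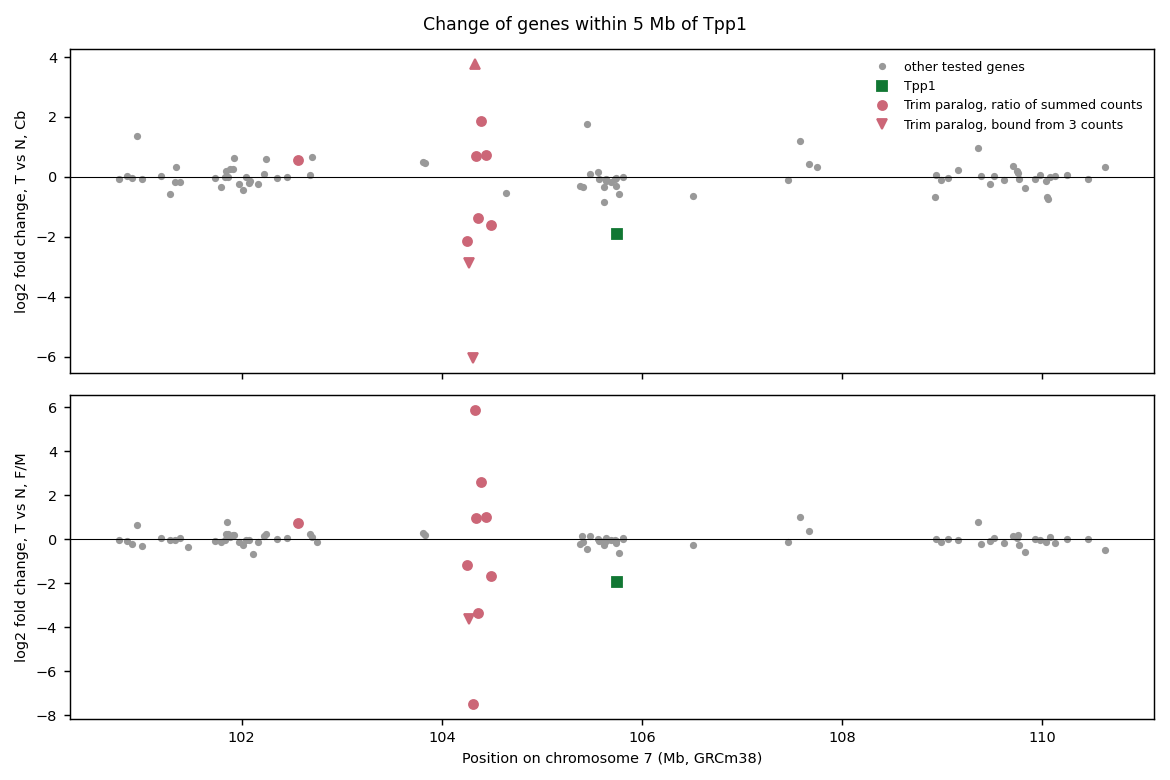
Log2 fold change (T vs N) of the genes within 5 Mb of Tpp1 against their midpoint on chromosome 7 (Mb, GRCm38), in Cb above and F/M below; gray points are other tested genes, the green square is Tpp1, red circles are Trim paralogs from the ratio of summed counts, and red triangles are bounds computed from a floor of 3 counts. The 9 clustered paralogs, 1.24 to 1.48 Mb to the left of Tpp1, lie on both sides of 0.

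Other *Trim* genes of chromosome 7 were not called in either area. *Trim3*, 0.111 Mb from *Tpp1* and a brain ubiquitin ligase, had 236 to 239 CPM in Cb-N and 178 to 192 CPM in Cb-T. Its log2 values were -0.34 (standard error 0.028) in Cb and -0.09 (standard error 0.034) in F/M. *Trim68*, which lies between *Trim21* and the cluster, had 0.06 (standard error 0.141) in Cb and 0.23 (standard error 0.113) in F/M, and its libraries overlapped in both areas. *Trim66* had -0.24 and -0.08, and *Trim72* 0.00 and 0.13. *Trim6*, next to *Trim34a*, had 3 to 14 counts per library and did not pass the filter.

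The beta-globin genes lie between *Trim21* and the cluster, 1.92 and 1.93 Mb from *Tpp1*, and the alpha-globin genes lie on chromosome 11. *Hbb-bs* changed by a log2 value of 0.46 (standard error 0.042) in Cb and 0.18 (standard error 0.049) in F/M, and *Hbb-bt* by 0.50 and 0.29. *Hba-a1* had 0.36 and 0.28 and *Hba-a2* 0.49 and 0.27. All 4 stayed under the limit of 1.5-fold in both areas.

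Among the 58 other *Trim* genes of the tables, 34 were tested in Cb and 37 in F/M. In each area 1 was called T vs N, and the median of the list was -0.04 (Cb) and -0.02 (F/M) on the log2 scale. The called genes, named after their values were seen, were *Trim13* in Cb (0.64, standard error 0.115) and *Trim25*, an activator of RIG-I signaling, in F/M (0.96, standard error 0.096). *Trim13* had 0.02 in F/M and *Trim25* 0.58 in Cb, and their interactions are not given here.

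Of 30 interferon-stimulated genes, all tested, 24 were called higher T vs N in Cb and 27 in F/M. Their median was 0.99 in Cb and 1.46 in F/M on the log2 scale, against 0.01 over all tested genes in each area. *Lgals3bp* had 16.9 to 17.5 CPM in Cb-N and 43.5 to 45.9 CPM in Cb-T, and 16.7 to 19.0 CPM in F/M-N and 57.7 to 63.3 CPM in F/M-T. *Stat2*, the most abundant gene of the list, was not called in either area.

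Markers of microglia also moved with genotype. Of 14 microglial genes, 12 were called higher T vs N in Cb and 9 in F/M, with a median log2 fold change of 2.16 and 1.01. Their summed level was 173, 177 and 187 CPM in Cb-N and 652, 664 and 662 CPM in Cb-T, and 508, 503 and 521 CPM in F/M-N and 793, 780 and 785 CPM in F/M-T. All T libraries were above the N libraries of their area, and each marker had counts in at least 1 library. In bulk tissue, more cells of a type and more RNA per cell cannot be told apart. The part of microglia in the values of the members was not tested. In N mice all 14 microglial genes were called lower in Cb than in F/M.

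Other marker lists gave smaller counts T vs N. Of 6 astrocyte genes, 2 were called higher in Cb, *Gfap* and *Aqp4*, and 1 in F/M, *Gfap*, the filament protein of reactive astrocytes. *Gfap* had log2 values of 2.91 (standard error 0.024) in Cb and 1.76 (standard error 0.029) in F/M. Of 5 border macrophage genes, *Mrc1*, *F13a1* and *Pf4* were called higher in Cb, and the median of the list was 0.59 in Cb and 0.14 in F/M on the log2 scale. The remaining genes of that list, not called, had values below 0 in Cb, *Cd163* -0.16 (standard error 0.228) and *Lyve1* -0.37 (standard error 0.314). Of 5 erythroid genes, *Alas2* was called higher in Cb, at 0.64, with 0.40 in F/M. The median log2 value was -0.22 in Cb and -0.08 in F/M for 5 neuronal genes, 0.33 and 0.00 for 5 oligodendrocyte genes, and 0.24 and 0.07 for 5 endothelial genes. Of 8 lymphocyte genes only *Cd4* passed the filter, in F/M, at 0.16 (standard error 0.097). In Cb, *Cd4* had 3 counts over the N group and 28 over the T group. *Nkg7*, a gene of cytotoxic lymphocytes, had 1 count in Cb-N and 12 in Cb-T, and 2 in F/M-N and 12 in F/M-T. These low counts were not tested. The part of these cells in the values of the members was not tested.

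The start of each gene was searched for the letters GAAANNGAAA on both strands, the core of the element bound by interferon-activated factors, in the 300 bases from 250 before to 50 after the annotated start (RefSeq, GRCm38.p6). *Trim30a* has 2 annotated starts, each with 1 match, and the 2 matches of *Trim21* overlap. The letters occurred in 7 of the 10 members, with *Trim5*, *Trim12a*, *Trim12c*, *Trim21*, *Trim30a*, *Trim30d* and *Trim34a* among them, and in 3.44% of 32851 promoters of all genes. Members that were higher in T and members that were lower in T both held them. *Trim30b*, *Trim30c* and *Trim34b* had 0 matches, which says only that these letters are not in the window. The stretches below, in the direction of transcription and with the match in capitals, show that the surroundings are alike between *Trim5* and *Trim12c* and between *Trim30a* and *Trim30d*, and unlike these in *Trim34a* and *Trim21*. In *Trim21* the letters stand as searched, with both matches in capitals, and in the others as their reverse complement. *Trim34a* is on the plus strand (chr7:104244442-104244486). The others are on the minus strand, in the order printed chr7:104288121-104288180, chr7:104353344-104353403, chr7:104465195-104465254, chr7:104507856-104507915 and, for *Trim21*, chr7:102565453-102565494. The stretch of *Trim12a*, not printed here, is 45 bases long and is the same as the first 45 bases of that of *Trim5*. A match is a description and does not show that a factor binds there.
Trim5: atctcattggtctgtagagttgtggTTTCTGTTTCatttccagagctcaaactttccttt
Trim12c: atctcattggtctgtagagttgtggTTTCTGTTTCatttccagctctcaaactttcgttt
Trim30a: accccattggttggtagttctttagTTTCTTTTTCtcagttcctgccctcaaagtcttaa
Trim30d: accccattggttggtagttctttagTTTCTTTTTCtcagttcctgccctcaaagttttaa
Trim21: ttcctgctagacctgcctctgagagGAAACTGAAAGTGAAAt
Trim34a: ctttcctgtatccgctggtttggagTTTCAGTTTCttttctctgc

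Genes with a pattern like those of *Trim12a* and *Trim34b* over the 12 libraries were sought among 17482 genes by Pearson's r of log2 CPM. For *Trim12a* they included *Nr3c1* (0.986), *Sgsm1* (0.980), *Per1* (0.979) and *Lrrk2* (0.978). For *Trim34b* they were *Nsfl1c* (0.987), *Sult1c2* (0.984), *B2m* (0.983), *Olfml1* (0.983) and *Lgals3bp* (0.981), of which *Olfml1* lies near *Tpp1* and the other 4 on other chromosomes. The 12 libraries differ by genotype and area, so these values are a description without a test. A high r says nothing of the size of a change. *Nsfl1c* had log2 values (T vs N) of 0.15 in Cb and 0.19 in F/M, *Nr3c1* -0.30 and -0.18, and *Sgsm1* -0.23 and -0.21, none of them called. *Sult1c2* had 2.77 (standard error 0.515) and 3.01 (standard error 0.443).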

How the data were processed

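Counts per gene were deposited by the authors without normalization, 1 table per library. The authors sequenced stranded poly(A) libraries as single-end reads of 50 bases, aligned them with STAR (2.5.1b in the submitters' processing notes) to mm10 and counted reads with featureCounts (1.26.1). Those notes also name Cufflinks 2.2.1, DESeq2 2, edgeR 3.18.1 and limma 3.32.10. Groups were taken from the sample titles. The members and the gene lists were chosen with earlier results of these data known.

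Genes were filtered by filterByExpr (minimum count 10, minimum total 15), scaled by TMM and tested with edgeR 4.0.16 in R 4.3.3, with Benjamini-Hochberg adjustment. DESeq2 1.42.0 and limma 3.58.1 were alternatives. With 3 libraries per group, a permutation of labels cannot give a p below 0.1, so none was used. Gene positions and exon lengths came from GENCODE M21, in which 91.5% of the 52459 symbols matched 1 gene. Named genes were the members, *Tpp1*, *Trim* genes of chromosome 7, neighbors called in both areas, globins, the 5 genes most like *Trim12a* and *Trim34b*, and the most abundant genes of each list. Some genes that this rule names are not reported here.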

Additional observations from a re-analysis of the deposited data

How the results depend on the processing

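Of the members called T vs N, 7 in each area, a mean count of at least 50 left 3 in Cb and 3 in F/M, because fewer members were tested. DESeq2 gave 6 in each area; in F/M the member short of the count, *Trim34b*, had no adjusted p. With no filter on low counts, 8 of 10 members were called in Cb and 9 of 10 in F/M. The members added were *Trim5* in both areas and *Trim30c* in F/M. At that setting 2383 of 28980 tested genes were called in Cb and 715 of 29969 in F/M. Without each library in turn, the count of members lay between 6 and 7 in Cb, and between 7 and 8 in F/M. For Cb vs F/M, the count of 0 became 1 of 6 with no limit on the fold change in N and in T. At that setting 13459 of 16725 genes over the genome were called in N and 13104 of 16943 in T. With no filter on low counts it became 1 of 9 in T, where 7441 of 29932 genes were called. Without each library in turn the count of members was 0 to 1 in N, 0 to 1 in T and 0 to 1 for the interaction. Genes within 5 Mb of *Tpp1* called in Cb numbered 11, but 7 with a mean count of at least 50. Further alternatives were chosen after seeing the data. With no limit on the fold change, 41 of 79 were called in Cb and 22 of 78 in F/M. At that setting 9442 of 16382 genes over the genome were called in Cb and 4541 of 16665 in F/M. With no filter on low counts, 17 of 151 genes within 5 Mb were called in Cb and 8 of 170 in F/M. Without each library the genes called within 5 Mb numbered 9 to 12 in Cb, and in F/M 3 to 5 around 4. The replicate block, pairing libraries by number, gave 7 members in Cb and 7 in F/M, 0 in each area contrast and the interaction, and 11 and 4 neighbors. The deviations of same-numbered libraries correlated at -0.016 to 0.062, and whether they share a mouse is not stated. The log2 ratio of the 10 summed members in Cb was 0.04 and -0.10 without *Trim21*. Leaving out libraries moved it from 0.00 to 0.12 in Cb and from 0.26 to 0.38 in F/M. The share of windows found in another member, counted gene by gene, was 13.7% at 50 bases and 17.6% at 36 bases.

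Log2 values (Cb vs F/M) near 0, of members that were not called, changed sign without single libraries, and the cause was not tested. In N, *Trim12a* had -0.039 to 0.31, *Trim21* -0.075 to 0.28 and *Trim30a* -0.10 to 0.16. In T, *Trim12c* had -0.19 to 0.035 and *Trim30d* -0.026 to 0.45. The interaction of *Trim30d* was -0.24 to 0.29. Those of *Trim12a* and *Trim34b* rest on groups at 0 or 1 counts and moved further without the library holding the single read, so they are not given.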
